A study of Mus musculus with 10 samples.

Results

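The genes described here are the 3 D-type cyclins (Ccnd1, Ccnd2 and Ccnd3), the 2 E-type cyclins (Ccne1 and Ccne2), the kinases they activate in G1 (Cdk4, Cdk6 and Cdk2), and Skp2 and Cks1b, which together mark the CDK inhibitor p27 for destruction. They were chosen by gene symbol, and all 10 were found among the 23235 symbols of both expression tables. RNA was sequenced from GFP-positive cells sorted from mouse cortex. The cells had received plasmids by in utero electroporation of radial glia at embryonic day 13, with either a control hairpin or one that targets the chromatin remodeler Chd8, and were sorted at embryonic day 15. Each replicate pooled cortices of 3 to 5 embryos, and the mouse strain is not given in the sources used here. The new set held 3 control and 3 Chd8 knockdown libraries (replicates 10, 11 and 12), and the first set held 2 control and 2 knockdown libraries (replicates 1 and 2). The tables are separate and named for different shRNAs, and the newer libraries carry their own label, so shRNA, set and table cannot be told apart. GFP marks the electroporated cells and what descends from them, so each library mixes progenitors and young neurons, and fewer cycling cells cannot be told apart from less RNA per cell.

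In G1 a cell decides whether to divide again. D-type cyclins, made in response to growth signals, activate Cdk4 and Cdk6, which begin to phosphorylate the retinoblastoma protein and its relatives. E2F factors are released and switch on the E-type cyclins, which activate Cdk2 and carry the cell into S phase. In the embryonic cortex the length of G1 in radial glia is tied to the choice between renewal and neurogenesis, and Ccnd2 mRNA is known to be carried into the basal processes of radial glia.

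The shRNA target was read first. Chd8 read 3.59, 3.30 and 4.02 FPKM (fragments per kilobase of transcript, scaled to library size) in the new-set controls, against 2.09, 1.84 and 1.92 FPKM with knockdown. First-set controls read 12.4 and 13.8 FPKM, and knockdown libraries 8.55 and 9.23 FPKM. No knockdown library reached its controls, with group means at 53.6% and 68% of control. Chd8 fell in the new set (log2 fold change −0.65, limma adjusted p = 0.0213) and missed the threshold in the first (−0.51, adjusted p = 0.152), and over both sets the exact permutation p was 0.0167, the smallest possible. The new-set call was lost without any 1 library other than control replicate 11 (adjusted p up to 0.0829). The absolute depth is unknown, but the spacing of low values put both first-set knockdown libraries at 0.529 times the depth of control replicate 1, against 0.959 to 1.39 times control replicate 10 in the new set. Those 2 libraries also stood apart in background. The 1118 olfactory receptor genes, silent in cortex, averaged 1.39 and 0.993 FPKM there and at most 0.0217 FPKM in the other 8 libraries. Values of a few FPKM in first-set knockdown libraries are close to that background.

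Per transcript length, Cdk4 was by far the most abundant of the 10. In the new-set controls it averaged 838 ± 68.1 FPKM (SD, n = 3), followed by Cks1b (178 ± 27.5 FPKM), Ccnd2 (73.2 ± 7.5 FPKM), Skp2 (33.7 ± 1.57 FPKM), Ccnd1 (28.9 ± 1.60 FPKM), Ccnd3 (25.0 ± 2.65 FPKM), Cdk2 (21.6 ± 4.27 FPKM), Ccne1 (11.9 ± 0.552 FPKM), Cdk6 (8.0 ± 0.463 FPKM) and Ccne2 (5.70 ± 0.289 FPKM). Of neighbours in this order only Ccnd3 and Cdk2 overlapped in range, while Ccnd1 and Ccnd3 nearly touched. The first-set controls had the same leading genes, with Cdk4 at 874 ± 161 FPKM (SD, n = 2), Ccnd2 at 182 ± 29.0 FPKM and Cks1b at 145 ± 9.96 FPKM, and Cdk6 was lowest at 1.49 ± 0.505 FPKM. The tables were normalized separately, so levels were not compared between them. Share of a family within a library does not depend on that scaling. Ccnd2 made 57.5% ± 3.11 of the summed D-type cyclin FPKM in the new-set controls and 84.2% ± 2.62 in the first-set controls.

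**Figure D1:**
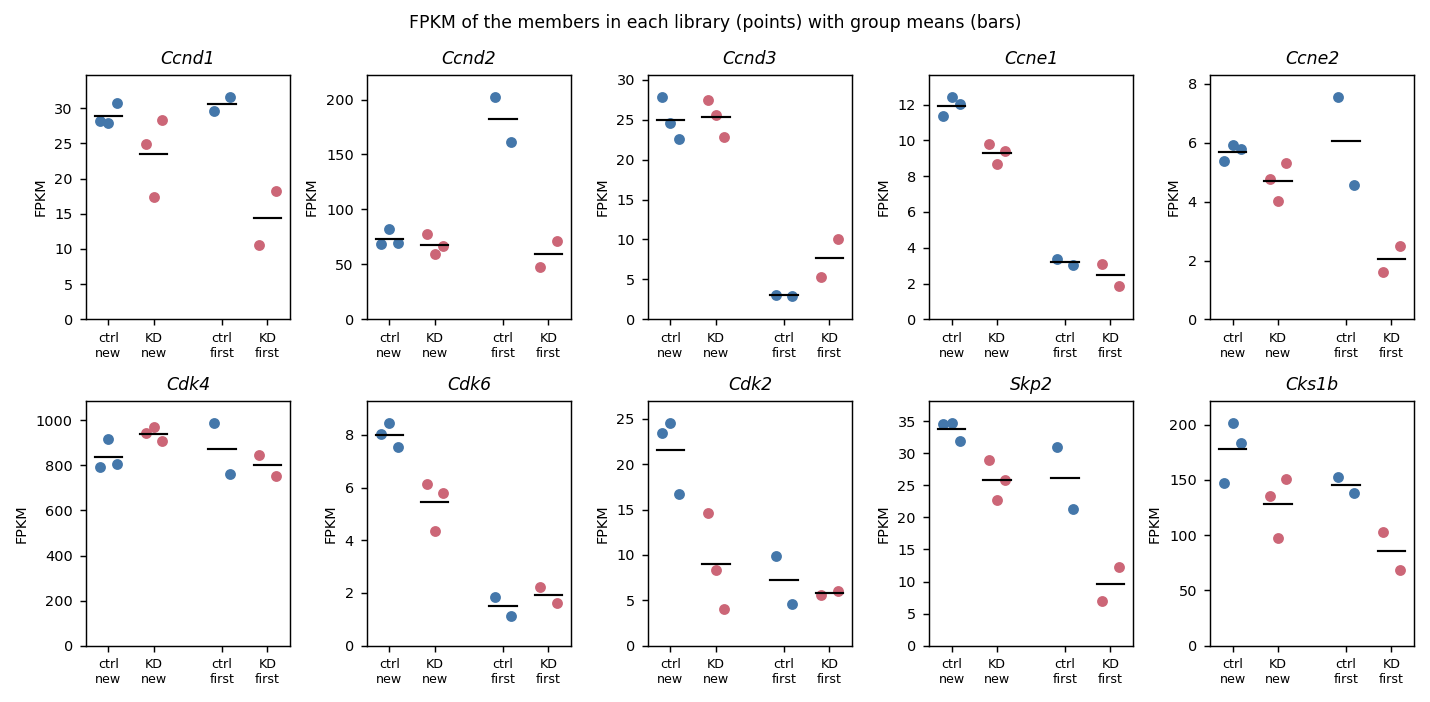
FPKM of each of the 10 genes (vertical axes, linear and starting at 0) in every library (points, blue for control and red for Chd8 knockdown), with group means as bars, for the new set (3 and 3 libraries) and the first set (2 and 2). Ccne2 and Skp2 lie lower in every knockdown library than in every control library of the same set, while Cdk4 overlaps in both.

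The main comparison asked whether Chd8 knockdown changed these genes. In the new set 0 of the 10 passed limma at a Benjamini-Hochberg adjusted p under 0.05 over all genes tested, where 8.99% of 11291 genes did (5.15% lower and 3.84% higher). At an unadjusted p under 0.05 there were 5, namely Ccne1, Cdk6, Cdk2, Skp2 and Cks1b, all lower with knockdown, against 30% of all genes in either direction and 14.7% lower. Both counts come from a fit that left out the pairing by replicate number. With the replicate number as a block 3 fell, namely Cdk2, Cdk6 and Skp2, where 21.7% of all genes were called, 10.7% lower and 11% higher. Of the same 10 genes 4 fell in the first set (Ccnd1, Ccnd2, Ccne2 and Skp2) and 0 rose, where 23.8% of 12461 genes were called, 10.7% lower and 13.2% higher. With both sets joined 5 fell (Ccnd1, Ccnd2, Ccne2, Skp2 and Cks1b) and 1 rose (Ccnd3), where 29.9% of 10827 genes were called, 20.5% lower and 9.37% higher. After subtraction of the olfactory receptor background 8 fell in the joined fit, with Ccne1 (−0.61, adjusted p = 0.0049), Cdk6 (−0.49, 0.018) and Cdk2 (−0.88, 0.0328) added, and 0 rose, where 40.6% of genes were called, 33.5% lower. Cdk2 also fell there with the replicate block (0.033) and without knockdown replicate 10 (0.0178) or control replicate 2 (0.0388), and Ccne1 without knockdown replicate 1 (0.0149). The first-set and new-set fold changes differed for 4 of 10 (3 higher in the new set, Ccnd2, Ccne2 and Skp2, and 1 lower, Ccnd3), where 32.5% of genes differed, 22.5% higher and 9.98% lower. The median log2 fold change of the 10 was −0.32 in the new set, beside 0.02 over all genes tested, and −0.53 beside −0.15 in the first.

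Scaling matters for the first set. Rescaling each library by the median of ratios moved the median of all genes tested there from −0.15 to 0.09 on the log2 scale, and the calls from 1332 lower and 1639 higher to 463 lower and 2058 higher. These are 20.1% of genes, 3.68% lower and 16.4% higher. After rescaling 2 of the 10 genes fell (Ccnd2 and Skp2) and Ccnd3 rose. The same step called 9.38% of new-set genes, 5.79% lower and 3.59% higher, with Skp2 the only member among them. Each first-set call also rested on few libraries. The count of members called was 0 without control replicate 1 or knockdown replicate 1, 1 without control replicate 2 and 2 without knockdown replicate 2.

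**Figure D2:**
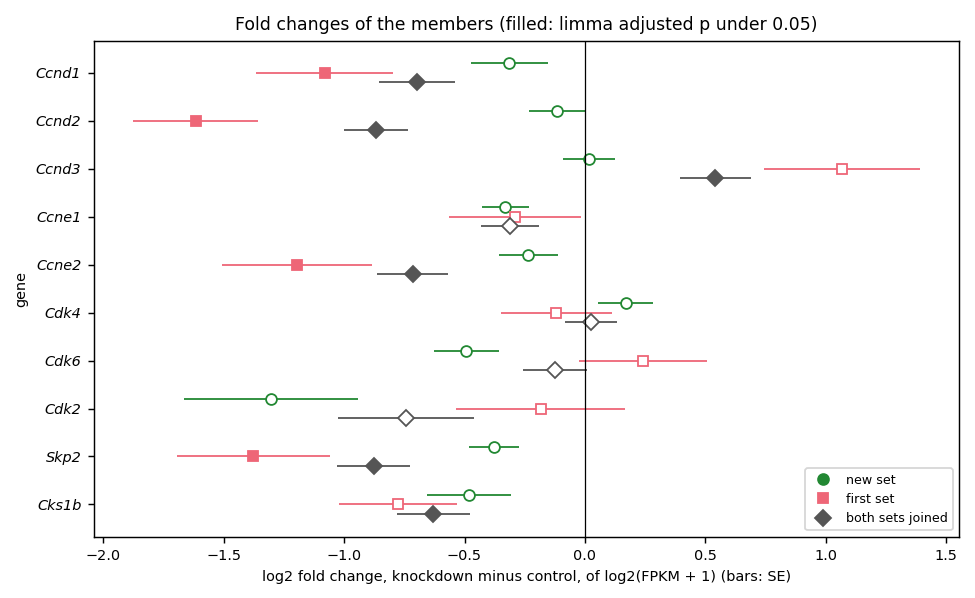
Log2 fold change of log2(FPKM + 1), knockdown minus control (horizontal axis), for each gene in the new set (circles), the first set (squares) and both sets joined (diamonds). Bars are standard errors and filled symbols have a limma adjusted p under 0.05, and the filled squares are Ccnd1, Ccnd2, Ccne2 and Skp2.

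Ccnd2, the most abundant D-type cyclin in every library, fell in the first set and did not pass in the new set. The first-set controls had 202 and 161 FPKM and the knockdown libraries 47.3 and 71.7 FPKM. Every knockdown library lay below both controls, at 32.7% of the control mean (log2 fold change −1.62, SE 0.259, limma adjusted p = 0.00574). Without control replicate 1 the adjusted p was 0.055 and without knockdown replicate 1 it was 0.06. In the new set the controls had 68.4, 81.9 and 69.5 FPKM and the knockdown libraries 77.8, 59.1 and 66.4 FPKM. These groups overlapped (−0.11, SE 0.119, adjusted p = 0.544). The difference between the sets was itself past the threshold (new minus first 1.5, SE 0.266, limma adjusted p = 0.00255).

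Ccnd1, the cyclin best known as a target of growth factor and Wnt signals, had 28.2, 27.9 and 30.8 FPKM in the new-set controls and 24.9, 17.4 and 28.3 FPKM with knockdown. Knockdown replicate 11 was the low value and replicate 12 lay within the control range (−0.31, SE 0.161, adjusted p = 0.226). In the first set it fell from 29.6 and 31.6 FPKM to 10.6 and 18.2 FPKM (−1.08, SE 0.284, limma adjusted p = 0.0341). That call was lost after rescaling (−0.83, adjusted p = 0.074) and without control replicate 1 (0.12), control replicate 2 (0.139) or knockdown replicate 1 (0.154). With both sets joined Ccnd1 fell by 0.70 on the log2 scale (adjusted p = 0.00803), and its difference between sets did not pass (0.77, SE 0.315, adjusted p = 0.0829). In the annotation 21.9% of its exonic bases overlap the opposite-strand gene LTO1, and strand-specific counting is not stated.

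Ccnd3 took a different course. It had 27.9, 24.6 and 22.6 FPKM in the new-set controls and 27.5, 25.6 and 22.8 FPKM with knockdown, and the groups overlapped almost wholly (0.02, SE 0.108, adjusted p = 0.936, and −0.002 after rescaling). First-set values were 3.10 and 2.92 FPKM in controls and 5.36 and 10.1 FPKM with knockdown. Both knockdown libraries were above both controls, without passing (1.07, SE 0.323, limma adjusted p = 0.0513), and it passed after rescaling (1.28, adjusted p = 0.0287). Subtracting the olfactory receptor background gave 0.83 (adjusted p = 0.15) and ended the joined call, which was a rise of 0.54 (adjusted p = 0.0183) and became 0.42 (adjusted p = 0.0723). The difference between sets was −1.05 (SE 0.294, adjusted p = 0.0197), and it was lost after background subtraction (0.0831) and without control replicate 2 (0.052). Markers of microglia, the immune cells of the brain, were also higher in those libraries. Of 7 microglia markers 6 were tested in the first set and 4 rose, where 13.2% of all genes tested rose. The summed level of the 7 was 1.39 and 5.28 FPKM in controls and 13.1 and 23.3 FPKM with knockdown. After background subtraction the sums were 1.29 and 5.15 against 4.89 and 16.3 FPKM and overlapped, and of 2 markers still tested (C1qb and Tyrobp) 0 passed. In controls 2 of the markers were at 0 in replicate 1 and 1 in replicate 2. Their part in the Ccnd3 values was not tested.

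The summed D-type FPKM was 127 ± 6.22 in the new-set controls and 117 ± 14.0 with knockdown, and 216 ± 27.7 and 81.7 ± 25.9 in the first set. Ccnd3 made 1.40% ± 0.12 of that sum in the first-set controls and 9.27% ± 1.15 in the knockdown libraries (SD, n = 2 and 2), while Ccnd2 went from 84.2% ± 2.62 to 73.2% ± 2.15. In the new set Ccnd3 made 19.7% ± 2.34 and 21.9% ± 2.89 (n = 3 and 3), and Ccnd2 57.5% ± 3.11 and 58.1% ± 1.65. The ratio of Ccnd1 to Ccnd3 was 9.55 and 10.8 in first-set controls against 1.98 and 1.80 with knockdown, and 1.17 ± 0.178 against 0.941 ± 0.28 in the new set. Over both sets the difference was −1.39 on the log2 scale (exact permutation test, two-sided, 120 regroupings within sets, p = 0.05, adjusted over 6 ratios 0.2). The ratio of Ccnd1 to Ccnd2 did not pass either (0.14, exact permutation p = 0.567, adjusted 0.7). The smallest p that this design allows is 0.0167. After adjustment over 6 ratios, a single ratio at that value could not pass.

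**Figure D3:**
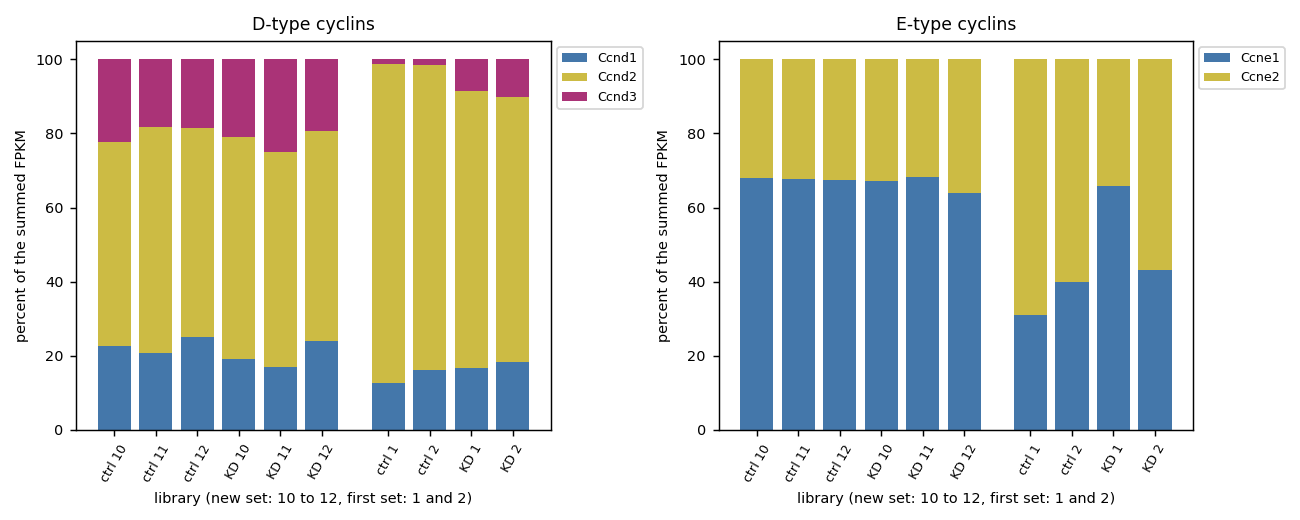
Percent of the summed FPKM of the D-type cyclins (left) and of the E-type cyclins (right) that each gene contributes in each library, labelled by group and replicate number. Ccnd3 averages 1.40% of the D-type sum in the first-set controls and 9.27% in the first-set knockdown libraries, and the ranges of the new-set groups overlap for every gene.

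Of the E-type cyclins, the activators of Cdk2 at the start of S phase, Ccne2 fell in the first set and Ccne1 passed in neither. Ccne2 had 5.37, 5.92 and 5.80 FPKM in the new-set controls and 4.78, 4.03 and 5.33 FPKM with knockdown. Every knockdown value was below every control value, though knockdown replicate 12 only just (−0.23, SE 0.122, adjusted p = 0.23). First-set values fell from 7.56 and 4.57 FPKM to 1.60 and 2.49 FPKM (−1.20, SE 0.313, limma adjusted p = 0.0334), a call lost after rescaling (−0.9994, adjusted p = 0.0608) and without any 1 of the 4 libraries (0.0697 to 0.2). The sets differed by 0.96 (SE 0.294, adjusted p = 0.0282), which was lost with the replicate block (0.0542), after rescaling (0.0805) and without control replicate 10 (0.0578), knockdown replicate 10 (0.0582), knockdown replicate 12 (0.0635), control replicate 1 (0.107) or knockdown replicate 1 (0.0915). Background subtraction moved this difference to 1.75 (adjusted p = 0.00762). It moved the first-set fold change to −1.98 (adjusted p = 0.0251), and the first-set knockdown values lie close to that background. In the annotation 10.5% of its exonic bases overlap Ints8 on the opposite strand.

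Ccne1 had 11.3, 12.4 and 12 FPKM in the new-set controls and 9.81, 8.66 and 9.40 FPKM with knockdown. The groups were well apart, at 77.9% of control, but the gene missed the threshold (−0.33, SE 0.0967, adjusted p = 0.0684, and 0.0514 with the replicate block). First-set libraries had 3.38 and 3.02 FPKM in controls and 3.09 and 1.88 FPKM with knockdown, and the groups overlapped (−0.29, SE 0.276, adjusted p = 0.462). Those values are close to the knockdown libraries' background, and after its subtraction the fold change was −0.89 (adjusted p = 0.088). The ratio of Ccne1 to Ccne2 was 2.09 ± 0.0195 in the new-set controls and 1.99 ± 0.201 with knockdown, and 0.554 ± 0.151 and 1.34 ± 0.829 in the first set (pooled 0.53, exact permutation p = 0.267, adjusted 0.533). Both genes lie close to background in the first-set knockdown libraries.

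Among the kinases, Cdk2 had the largest fold change of the 10 in the new set. The controls had 23.5, 24.5 and 16.7 FPKM and the knockdown libraries 14.6, 8.36 and 4.04 FPKM. All 3 knockdown libraries lay below all controls, from 14.6 down to 4.04 FPKM, and the gene missed the threshold (−1.30, SE 0.361, adjusted p = 0.0596). It fell with the replicate number as a block (adjusted p = 0.0165) and without knockdown replicate 10 (−1.6976, adjusted p = 0.0372). First-set Cdk2 was at 9.87 and 4.54 FPKM in controls and 5.62 and 6.05 FPKM with knockdown, with overlap (−0.18, SE 0.352, adjusted p = 0.723). The difference between sets did not pass (−1.12, SE 0.565, adjusted p = 0.15).

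Cdk6, the less abundant partner of the D-type cyclins here, had 8.03, 8.44 and 7.52 FPKM in the new-set controls and 6.15, 4.37 and 5.81 FPKM with knockdown. The groups did not overlap (−0.49, SE 0.134, adjusted p = 0.057), and the gene fell with the replicate block (adjusted p = 0.044). First-set controls had 1.85 and 1.13 FPKM, where the olfactory receptor background was 0.0181 and 0.0217 FPKM. The knockdown libraries had 2.22 and 1.63 FPKM, near their background of 1.39 and 0.993 FPKM. The first-set fold change was 0.24 (SE 0.266, adjusted p = 0.529) and turned to −0.50 (adjusted p = 0.281) after background subtraction.

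Cdk4, which made 96.6% ± 0.457 of the summed FPKM of the 3 kinases in the new-set controls and 99% ± 0.305 in the first-set controls, passed in neither set. It had 793, 917 and 805 FPKM in the new-set controls and 942, 969 and 910 FPKM with knockdown (0.17, SE 0.114, adjusted p = 0.345). The first-set libraries had 987 and 760 FPKM in controls and 848 and 752 FPKM with knockdown (−0.12, SE 0.232, adjusted p = 0.729, or 0.14 after rescaling). Groups overlapped in both sets. Of its exonic bases 31.2% overlap Tspan31 on the opposite strand, the largest such share among the 10, and Tspan31 itself was at 109 to 133 FPKM in the new set. The ratio of Cdk4 to Cdk6 lay above the control range in the new set (105 ± 5.27 and 177 ± 38.6) and lay below it in the first set (603 ± 96.7 and 421 ± 56.1), and over both sets did not pass (0.11, exact permutation p = 0.7, adjusted 0.7). The first-set direction turned after background subtraction (540 and 685 in controls, 1019 and 1179 with knockdown). The groups then lay apart in the same direction in both sets, with a value over both of 0.79 (adjusted exact permutation p = 0.1). That is the smallest adjusted p a single ratio can reach here, so it could not pass. The ratio of Cdk4 to Cdk2 was 39.8 ± 7.57 and 135 ± 82.3 in the new set, against first-set values of 134 ± 47.6 and 138 ± 18.9 (0.84, exact permutation p = 0.0667, adjusted 0.2).

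The Cdk4 promoter is shown because its E-boxes, the CACGTG element bound by Myc, are a textbook case and Myc moved in opposite directions in the sets. RefSeq sequence of build GRCm38.p6 was used (chr10:127063285-127063584, plus strand, 250 bases before to 50 after the start), with the matches in capitals.
Cdk4: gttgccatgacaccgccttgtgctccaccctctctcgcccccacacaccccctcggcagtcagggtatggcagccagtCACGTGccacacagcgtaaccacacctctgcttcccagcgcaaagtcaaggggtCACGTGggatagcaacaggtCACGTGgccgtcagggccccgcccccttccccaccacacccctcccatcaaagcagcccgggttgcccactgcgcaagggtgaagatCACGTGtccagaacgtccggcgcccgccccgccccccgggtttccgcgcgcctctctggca
The window holds 4 matches, at −172, −118, −98 and −11 from the start. Of 32851 promoters of this length 7.15% hold at least 1 CACGTG and 0.0244% hold at least 4. Myc fell in the new set from 17.8 ± 2.18 to 11.7 ± 1.24 FPKM (SD, n = 3 and 3, −0.56, SE 0.122, limma adjusted p = 0.033) and rose in the first set from 21.9 ± 2.68 to 41.2 ± 9.01 FPKM (n = 2 and 2, 0.87, SE 0.241, adjusted p = 0.0397). The new-set Myc call was lost with no filter (adjusted p = 0.058) and without control replicate 10 or any 1 knockdown library (0.0793 to 0.0941). The first-set Myc call was lost with no filter (0.0799). Leaving out a first-set library left 1 in a group, too few to read a call. The first-set Myc fold change in those fits ran from 0.65 to 1.09. The difference between sets passed (−1.44, adjusted p = 0.0021). For Cdk4 the same difference was 0.29 (SE 0.22, adjusted p = 0.337).

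Skp2, the F-box protein that recognises p27, was lower in every knockdown library of both sets. It had 34.6, 34.7 and 31.9 FPKM in the new-set controls and 29.0, 22.6 and 25.9 FPKM with knockdown. The new-set groups did not overlap (76.6% of control, −0.38, SE 0.104, limma adjusted p = 0.0579), and the gene fell with the replicate block (adjusted p = 0.034) and after rescaling (−0.40, adjusted p = 0.0488). It fell in the first set from 30.9 and 21.4 FPKM to 7.03 and 12.2 FPKM (−1.38, SE 0.318, adjusted p = 0.0231), and after rescaling by 1.14 (adjusted p = 0.041). Leaving out any 1 of the 4 first-set libraries ended that call (adjusted p from 0.0614 to 0.153). With both sets joined Skp2 fell by 0.88 (SE 0.151, adjusted p = 0.00243). The sets differed by 0.9987 (SE 0.301, adjusted p = 0.0267), a call lost with the replicate block (0.0576), after rescaling (0.0859) and without control replicate 12 (0.0517), knockdown replicate 10 (0.0615), knockdown replicate 12 (0.0505), control replicate 1 (0.103) or knockdown replicate 1 (0.0917).

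Cks1b, the small adaptor that Skp2 needs to bind p27, had 148, 201 and 184 FPKM in the new-set controls and 135, 97.6 and 150 FPKM with knockdown. Knockdown replicate 12 lay just above control replicate 10 (−0.48, SE 0.175, adjusted p = 0.113). First-set values were 152 and 138 FPKM in controls and 103 and 68.8 FPKM with knockdown, without overlap (−0.78, SE 0.245, adjusted p = 0.0576). With both sets joined it fell by 0.63 (SE 0.152, adjusted p = 0.0107). The ratio of Skp2 to Cks1b did not pass (−0.30, exact permutation p = 0.633, adjusted 0.7). Of its 50-base stretches 5.52% also occur in transcripts of other genes, chiefly Cks1brt, so a small share of its reads could be split.

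The Cks1b promoter is shown for the CCAAT box, an element of many cell cycle promoters. It had the most matches to it among these genes with a RefSeq entry (GRCm38.p6, chr3:89418242-89418541, minus strand, matches in capitals).
Cks1b: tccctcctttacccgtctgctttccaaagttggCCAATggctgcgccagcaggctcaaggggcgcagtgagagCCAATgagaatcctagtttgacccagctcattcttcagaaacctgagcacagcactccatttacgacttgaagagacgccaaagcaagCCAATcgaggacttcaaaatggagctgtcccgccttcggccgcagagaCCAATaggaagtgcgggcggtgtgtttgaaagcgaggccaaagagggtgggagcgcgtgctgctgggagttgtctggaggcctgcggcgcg
It holds 4 CCAAT matches. Of all promoters 37.4% hold at least 1 and 1.06% at least 4. Both strands were searched for CCAAT, for the E-box, for the GC box GGGCGG and for the E2F elements TTTGGCGC and TTTCGCGC. RefSeq entries were found for 7 of the 10 genes. Neither E2F form was found in them, and 0.813% of all promoters hold either. GC boxes were most frequent in Cdk2 (6 matches) and Ccne1 (4), and 5.49% of promoters hold at least 4. A missing match says only that these letters are not in the window.

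Across both sets 2 of the 10 genes, Ccne2 and Skp2, were lower in every knockdown library than in every control of their set, where 7.6% of genes were (and 3.57% higher in both). Within the new set 5 were lower without overlap (Ccne1, Ccne2, Cdk6, Cdk2 and Skp2), where 17.1% of genes were (18.6% higher), and within the first set 5 were (Ccnd1, Ccnd2, Ccne2, Skp2 and Cks1b), where 40.4% were. Ccnd3 alone was higher without overlap, in the first set, where 27.4% of genes were. Over the 10 libraries, centred within each set, Skp2 varied with Ccne2 (Pearson r 0.973), Ccnd2 (0.963) and Ccnd1 (0.913). These libraries share their group labels and scaling, so the values only describe. Ccnd3 ran opposite to Cks1b (−0.772) and Ccnd2 (−0.685). Among 5298 genes with at least 10 FPKM in both tables, those most like Ccnd1 over the 10 libraries were Klhl13, Fubp3 and D2Ertd750e (r 0.954 to 0.976). Those most like Ccnd2 were Hdac1, Hmgb3 and 4933424B01Rik (0.987 to 0.993). Ccne2 was nearest to Bub1, Mcm4 and Zfp280d (0.979 to 0.985) and Skp2 to Ivd, Prom1 and Mfng (0.988 to 0.995).

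The genes around this step were read from a list of 45 other G1/S genes. In the new set 4 of 42 tested fell, 0 rose and 38 did not pass, beside 8.99% of all genes called (5.15% lower), and the list's median was −0.21 beside 0.02 over all genes. They were E2f2, Cdt1 (a licensing factor), Tk1 (thymidine kinase) and Myc. Of 41 tested in the first set 8 fell, Myc rose and 32 did not pass, beside 23.8% of all genes called (10.7% lower and 13.2% higher), and the median was −0.48 beside −0.15. The 8 were Rb1, Tfdp1 (the DNA-binding partner of E2Fs), Skp1a (a subunit of the SCF ligase), Cks2, Ccna2 (cyclin A), Rrm2 (ribonucleotide reductase), Tk1 and Mcm5. The direction of this list in the first set depended on scaling: after rescaling 1 gene fell (Rb1, −0.90, adjusted p = 0.0387) and 3 rose, Myc (1.12, adjusted p = 0.0195) and, outside the naming rule, Cdk7 (0.80, adjusted p = 0.0449) and Tyms (0.99, adjusted p = 0.0326), where 3.68% of all genes were lower and 16.4% higher. With the replicate block 9 genes of the list fell in the new set, beside 10.7% of all genes. When single libraries were left out, new-set calls in the list numbered 0 to 6 (0.778% to 16.7% of all genes), and first-set calls 0 to 1 (5.57% to 10.3%).

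By role, all 10 E2F-regulated S phase entry genes had a fold change below 0 in the new set, and 2 fell. There 5312 of all 11291 genes tested were below 0 and 5.15% fell. For the first set 8 of the 10 were below 0 and 4 fell, where 7233 of all 12461 genes were below 0 and 10.7% fell. Rrm2 fell in the first set from 247 ± 113 to 97.8 ± 11.8 FPKM (−1.26), Ccna2 from 23.2 ± 3.22 to 12.5 ± 0.894 FPKM (−0.84) and Mcm5 from 43.7 ± 9.40 to 23.0 ± 5.10 FPKM (−0.90). These calls were lost after rescaling, for Rrm2 (−0.998, limma adjusted p = 0.0706), Ccna2 (−0.59, 0.108) and Mcm5 (−0.65, 0.114). Tk1 fell in both sets, from 36.9 ± 2.15 to 23.5 ± 2.51 FPKM in the new set (SD, n = 3 and 3, −0.64, SE 0.1, limma adjusted p = 0.0178) and from 45.0 ± 10.2 to 23.3 ± 5.75 FPKM in the first (n = 2 and 2, −0.92, SE 0.266, adjusted p = 0.0449). The first-set Tk1 call was lost after rescaling (−0.67, adjusted p = 0.127), and the new-set call without knockdown replicate 11 (0.0637). Of the 10 E2F and DP factors, which carry the G1 signal to those genes, 1 fell in each set. The same 5.15% (new set) and 10.7% (first set) of all genes stand beside these counts. E2f2 went from 2.56 ± 0.699 to 1.05 ± 0.426 FPKM in the new set (−0.80, SE 0.205, adjusted p = 0.049), and Tfdp1 from 31.4 ± 1.98 to 16.3 ± 5.69 FPKM in the first (−0.95, SE 0.277, adjusted p = 0.0474, and −0.70 with adjusted p = 0.11 after rescaling). The E2f2 call was lost with a pseudocount of 0.1 (0.0542) and with no filter (0.0885). It was also lost without any 1 library other than control replicate 11 (0.0651 to 0.16).

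Of the 3 pocket proteins, the targets of the G1 kinases, Rb1 was at 31.2 ± 9.71 and 35.1 ± 3.96 FPKM in the new set (0.20, adjusted p = 0.522) and fell from 14.1 ± 2.02 to 5.87 ± 0.296 FPKM in the first (−1.13, SE 0.245, adjusted p = 0.0185). With single first-set libraries left out, the Rb1 fold change ran from −1.26 to −0.99. Those fits leave 1 library in a group, too few to read a call. Rbl1 and Rbl2 passed in neither set. Of 7 CDK inhibitors 5 were tested and limma called 0 in either set, with 1 at an unadjusted p under 0.05 in each. Over all genes tested 30% were under that value in the new set and 4884 of 12461 in the first. Cdkn1b, which codes for p27 itself, was at 14.5 ± 1.36 and 16.1 ± 1.68 FPKM in the new set (0.15, adjusted p = 0.393) and at 46.2 ± 4.55 and 32.8 ± 2.89 FPKM in the first (−0.48, adjusted p = 0.134), and the difference between sets passed (0.63, adjusted p = 0.0324). That difference was lost after rescaling (0.36, adjusted p = 0.2101) and without control replicate 11 (0.0508), control replicate 12 (0.0767), knockdown replicate 10 (0.0617), knockdown replicate 11 (0.0793), control replicate 2 (0.0929) or knockdown replicate 2 (0.0697). The inhibitors Cdkn2a and Cdkn2b were at most 0.661 FPKM in every library. Of the 9 SCF, CDK-activating kinase and CDC25 genes 0 passed limma in the new set, also at an unadjusted p under 0.05, and 2 fell in the first, Skp1a (684 ± 86.8 to 392 ± 32.6 FPKM, −0.80, adjusted p = 0.0356) and Cks2 (152 ± 14.8 to 91.5 ± 11.2 FPKM, −0.73, adjusted p = 0.0426). Neither call held after rescaling (adjusted p = 0.135 for Skp1a and 0.166 for Cks2). Upstream of the D-type cyclins, of 6 listed inducers Myc was the only one called in either set, and Mycn (−0.08 and −0.27), Ctnnb1 (0.04 and −0.69) and the Hedgehog effector Gli2 (−0.52 and −0.79) did not pass in the new or the first set.

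**Figure D4:**
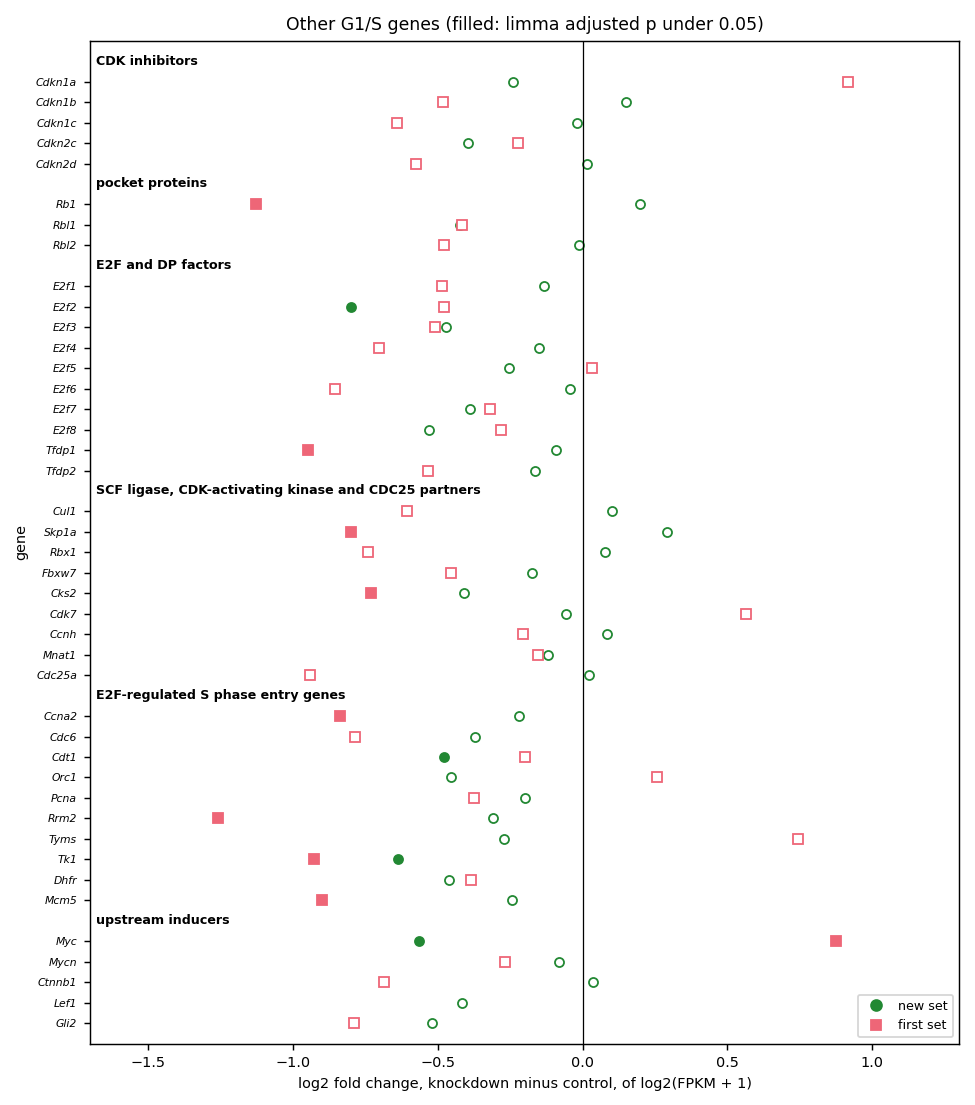
Log2 fold change of log2(FPKM + 1), knockdown minus control (horizontal axis), of the tested genes among 45 other G1/S genes, grouped by role, in the new set (circles) and the first set (squares). Filled symbols have a limma adjusted p under 0.05, and Myc is filled on opposite sides of 0.

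Markers of the sorted populations moved with these groups. In the new set 6 of 10 radial glia markers and 3 of 6 intermediate progenitor markers fell, and 3 of 9 tested neuronal markers rose. Over all genes tested there 5.15% fell and 3.84% rose. The summed neuronal level was 2307 to 2722 FPKM in controls and 3257 to 4019 FPKM with knockdown, and that of radial glia 1200 to 1548 and 993 to 1542 FPKM. Without Fabp7 the other 9 radial glia markers summed to 499 to 537 FPKM in controls and 400 to 437 FPKM with knockdown, without overlap. The intermediate progenitor sum was 801 to 954 FPKM in controls and 539 to 595 FPKM with knockdown. All 4 interneuron markers tested also fell there, with sums of 16.3 to 22.9 and 7.92 to 8.39 FPKM over 7 markers, and 2 of 4 erythroid markers tested fell (137 to 264 and 23.2 to 114 FPKM). Among first-set markers 2 of 10 radial glia and 4 of 9 neuronal markers fell, where 10.7% of all genes tested fell and 13.2% rose. Intermediate progenitor markers went both ways there (2 rose and 2 fell). Their sum was 497 and 511 FPKM in controls and 972 and 531 FPKM with knockdown. In the first set the median log2 fold change was −0.28 for radial glia and −0.43 for neuronal markers, beside −0.15 over all genes. After rescaling these medians were −0.03, −0.18 and 0.09. The summed neuronal level there was 4326 and 4933 FPKM in controls and 3087 and 3330 FPKM with knockdown, and that of radial glia 1807 and 1834 against 1032 and 2188 FPKM. Fabp7 alone made most of that sum (1483 and 1435 FPKM in controls, 770 and 1830 with knockdown), and the other 9 markers summed to 324 and 399 against 262 and 358 FPKM. None of the radial glia or neuronal markers in the tables was at 0 in any library. The part of cell makeup in the values of the 10 genes was not tested. Endothelial markers summed to at most 5.73 FPKM and oligodendrocyte precursor markers to at most 1.86 FPKM in every library.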

How the data were processed

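RNA of sorted cells was purified on Qiagen columns and made into libraries with a low-input Clontech kit, per the labels' protocols. TopHat2, Bowtie, Cufflinks 2.0.0, Cuffdiff and build mm9 stand in the submitters' processing notes. The sources used here give neither annotation nor strand setting. The authors deposited FPKM values, 1 column per library, in 2 tables. FPKM carry no counts, so no counting error could be given, and pools of embryos are the replicates.

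Values were transformed to log2(FPKM + 1), which understates changes of low genes, and genes averaging 1 FPKM or more in a table were fitted with limma 3.58.1 in R 4.3.3 (eBayes with trend, two-sided), each table on its own (residual df 4, new set; 2, first set). A joined fit (6 degrees of freedom) estimated the mean of both fold changes and their difference. P-values were adjusted over all genes tested, with calls at 0.05. The code was tested on simulated data. Ratios were compared by exact permutation within sets. In the new set same-numbered libraries deviated together (r 0.122, 0.242 and 0.193). With 2 libraries a group the first set gives 1 independent value (r −0.0285), which cannot settle whether numbers pair there. New-set numbers were therefore taken to pair libraries, but only the replicate block used this pairing. All other tests, the main fits among them, left it out.

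Depth was compared by the commonest ratio of values under 0.3 FPKM. Overlaps and shared 50-base stretches were read from GENCODE M21 (GRCm38), which is not the authors' build. Named genes were the 10, Chd8, up to 3 genes of each pathway list with the smallest joined p, every list gene called in either set, and the 3 genes most correlated with each called member. Members and lists were chosen with earlier results of these data known. Alternatives were a pseudocount of 0.1, no filter, a minimum of 5 FPKM, rescaling, background subtraction, no trend, the block, and leaving out each library.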

Additional observations from a re-analysis of the deposited data

Results flagged for a closer look

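These genes had fold changes that differed between the new set and the first set in the joined limma fit (new minus first, log2 scale, adjusted over all genes tested, where 32.5% of genes differed). Among the 10 genes they were Ccnd2 (1.5, adjusted p = 0.00255), Ccnd3 (−1.05, 0.0197), Ccne2 (0.96, 0.0282) and Skp2 (1.0, 0.0267). Of 41 other G1/S genes tested 13 differed, 10 higher and 3 lower. Those under the naming rule were Cdkn1b (0.63, 0.0324), Rb1 (1.33, 0.00755), Tfdp1 (0.85, 0.0213), Skp1a (1.09, 0.00435), Rbx1 (0.82, 0.0146), Cdc25a (0.96, 0.018), Ccna2 (0.62, 0.0353), Myc (−1.44, 0.0021) and the beta-catenin gene Ctnnb1 (0.72, 0.0371). The remaining 4, chosen after their values were seen, were E2f6 (0.81, 0.0289), Cul1 (0.71, 0.0378), Cdk7 (−0.62, 0.0268) and Tyms (−1.01, 0.0122). After rescaling, differences that no longer passed were those of Ccne2 (adjusted p = 0.0805), Skp2 (0.0859), Cdkn1b (0.2101), Tfdp1 (0.0865), Rbx1 (0.0995), Cdc25a (0.0631), Ccna2 (0.2061), Ctnnb1 (0.18), E2f6 (0.1133) and Cul1 (0.1762), and after background subtraction those of Ccnd3 (0.0831) and Cdk7 (0.0614). Shares near the background make the count itself no result about these genes. Over all genes tested the median difference was 0.23, and −0.01 after rescaling.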

How the results depend on the processing

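Joined calls of Ccnd1, Ccnd2, Skp2 and Cks1b were the same under all alternatives run. Ccne2 was also called in each except the 5 FPKM minimum, where it was not tested, and Ccnd3 lost its call after background subtraction (0.42, adjusted p = 0.0723). Members called in the new set numbered 1 after rescaling (Skp2; 9.38% of all genes were called), 3 with the replicate block (21.7%), and 0 to 1 when single libraries were left out (1 without knockdown replicate 10, Cdk2; 1.78%). Members called in the first set numbered 1 with no filter (Ccnd2, 13% of all genes) and 5 with the replicate block (21.8%). Whether numbers pair the first-set libraries could not be judged. Leaving out a first-set library leaves 1 in an arm, and its spread is assumed to equal that of the other group. Members differing between sets numbered 2 to 6, with 2 without knockdown replicate 12 or knockdown replicate 1. Pathway genes called in the new set numbered 1 with no filter (2.68% of all genes), 9 with the block and 0 to 6 without single libraries (0 without knockdown replicate 11, 1 without control replicate 10 or knockdown replicates 10 or 12, and 2 without control replicate 12). Pathway genes called in the first set numbered 1 with no filter, 4 after rescaling (20.1% of all genes), 16 after background subtraction (25.1%) and 0 to 1 without single libraries. With single libraries left out, Chd8 in the new set ranged from −0.70 to −0.59, with adjusted p up to 0.0829. Of these fits it was called only in that without control replicate 11. The new-set Chd8 call was not lost in the other alternatives that tested it.

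Some values turned sign. After rescaling they were Ccnd3 −0.002 and Cdkn2d −0.0009 in the new set, and Cdk4 0.14, Cdk2 0.039 and Cdt1 0.011 in the first. After background subtraction they were Cdk6 −0.50 in the first set and, for the difference between sets, Chd8 0.042, Ccne1 0.56 and Cdk6 0.0051. A pseudocount of 0.1 turned the Ccne1 difference to 0.033. With single libraries left out, new-set values ran from −0.050 to 0.094 for Ccnd3, −0.053 to 0.077 for Cdkn2d, −0.11 to 0.090 for Rbl2, −0.012 to 0.16 for Rbx1, −0.044 to 0.085 for Cdc25a and −0.054 to 0.10 for Ctnnb1. First-set values ran from −0.31 to 0.070 for Cdk4, −0.67 to 0.30 for Cdk2, −0.91 to 0.081 for Rbl1 and −0.49 to 0.094 for Cdt1. The joined Cdk4 value ran from −0.069 to 0.12, the Ccne1 difference from −0.29 to 0.21, and the log2 ratio of Skp2 to Cks1b from −0.64 to 0.048 (above 0 without knockdown replicate 1). The cause of these changes was not tested.

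Of the single-gene values under the other alternatives, 561 kept direction and side of the threshold, 26 passed newly, 43 no longer passed and 10 turned sign. With single libraries left out these were 492, 10, 97 and 21. Without counts, precision rests on 2 or 3 libraries a group, and low values in the first-set knockdown libraries lie within their background.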
